A study of Mus musculus with 7 samples.

Results

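IVD, EHHADH, BCL6, TNFRSF11B, MATN2 and LRRC55 are 6 islet genes known to rise with prolactin or in pregnancy, leaving aside the serotonin and cell-cycle genes. They were found by name in the gene table, which holds 34082 gene names, most of them spelled as human symbols. All 6 passed the filter on low values, with 14840 genes tested in all. Islets were taken from 7 C57BL/6 mice at day 15 of gestation, and each mouse gave 1 RNA library, made from 100 to 200 hand-picked islets. In 4 βPrlR+/- mice the prolactin receptor gene Prlr was deleted from pancreatic β-cells by CreER, a tamoxifen-activated Cre recombinase driven by the Pdx1 promoter. In 3 Prlr+/- mice 1 allele of Prlr was missing from all tissues. The deposited labels give an age of 3 to 4 months for the mice, and the methods of the study a somewhat older one. The βPrlR+/- mice carried Cre and were given tamoxifen, and the Prlr+/- mice had neither, so genotype, Cre and tamoxifen cannot be told apart. The design text deposited with the data calls the β-cell deletion homozygous, whereas the methods of the study call it heterozygous, and the name βPrlR+/- follows the methods. The titles of these 4 samples read CkoWt, which the methods do not explain, so the genotype behind this group, and with it every difference between the groups, rests on the label that names pancreatic β-cells as the tissue of deletion. The libraries are of whole islets. The methods describe a night in culture medium after isolation, which the labels do not mention. In addition, no islets of wild type or non-pregnant mice were analysed here. A rise in pregnancy was therefore not measured, and the comparison asks whether these genes differ between a β-cell and a global loss of the receptor.

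Prolactin and the placental lactogens act on β-cells through the prolactin receptor. The receptor signals through the kinase JAK2, which phosphorylates the transcription factors STAT5A and STAT5B, and these bind DNA as dimers. In pregnancy this signal is known to raise β-cell number and insulin secretion. CISH and SOCS2 are STAT5 targets that restrain the same pathway. The 6 genes have different jobs. IVD and EHHADH are enzymes of branched-chain amino acid and fatty acid breakdown, BCL6 is a transcriptional repressor, TNFRSF11B and MATN2 are secreted proteins, and LRRC55 is an accessory subunit of a potassium channel.

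Levels are given as scaled TPM, the TPM (transcript abundance per transcript length, summing to 1000000 in a mouse) after division by a size factor for each mouse, because the insulin genes took 46.1% to 58.9% of all TPM. TPM is per transcript length, so levels may be compared between genes, but it keeps no sequencing depth, and no counting interval is given. Log2 fold changes set Prlr+/- over βPrlR+/- mice after 1 was added to each scaled TPM, so the change of a scarce gene such as BCL6 is understated. Intervals of the fold are of the same values with 1 added. Genes of a list are counted as higher or lower by the sign of this value. Of the 14840 genes tested, 10 passed limma's test at an adjusted p of 0.05, 1 higher and 9 lower in Prlr+/- islets. The number was 2 without βPrlR+/- mouse 4, 4 without βPrlR+/- mouse 2, and 5 without βPrlR+/- mouse 1, Prlr+/- mouse 1 or Prlr+/- mouse 2. Every marker gene found, for islet and other cell types, was above 0 in at least 1 mouse, and the summed β-cell markers were 451240 to 598761 scaled TPM in βPrlR+/- and 582064 to 714823 in Prlr+/- mice. The β-cell markers were higher in Prlr+/- islets for 9 of 10 genes (median log2 fold change 0.30), and the groups overlapped for each of the 10. All 5 α-cell, all 3 δ- and PP-cell, all 7 endothelial and all 5 neuronal markers had lower means in Prlr+/- islets, with medians of −0.22, −0.22, −0.24 and −0.69. Of these only the neuronal genes PRPH and STMN2 passed the test. The groups did not overlap for 3 of the 7 endothelial markers, PECAM1, CDH5 and TIE1, and for neuronal ones including PRPH and STMN2. At an unadjusted limma p under 0.05 were 4 endothelial, 3 neuronal, 1 α-cell, 1 β-cell and 1 Schwann cell marker. The 6 acinar markers tested had log2 fold changes above 0 (median 0.13), although 5 of them, all but RBPJL, had a lower mean scaled TPM in Prlr+/- islets, and their sum ran from 1314 scaled TPM in βPrlR+/- mouse 2 to 12226 in βPrlR+/- mouse 1. Of the duct markers 1 was higher and 1 lower. Of the fibroblast and pericyte markers 1 of 6 was higher, of the macrophage markers 5 of 7 and of the Schwann cell markers 1 of 4, where the groups of S100B did not overlap. In bulk RNA, fewer cells of a type and less RNA per cell cannot be told apart.

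None of the 6 genes passed the test of a difference between the groups (limma, adjusted p = 1.0 for each), against 0.0674% of all genes tested that were called (0.00674% higher and 0.0606% lower in Prlr+/- islets). At an unadjusted p under 0.05 the count was also 0 of 6, against 4.52% of all genes. The groups overlapped for all 6 genes, whereas 4.95% of all genes did not overlap (1.84% higher and 3.11% lower). The means of 5 genes were higher in Prlr+/- islets and the mean of BCL6 was lower. Their median log2 fold change was 0.14, beside 0.0042 for all genes tested, of which 51.7% were above 0. On TPM without the size factors, where the median of all genes was −0.12, the log2 fold changes were 7.7e-05 for IVD, −0.0017 for EHHADH, 0.27 for MATN2, 0.0044 for TNFRSF11B, −0.19 for BCL6 and 0.12 for LRRC55. The spread between mice of one group was wide in most of the 6 genes, and Prlr+/- mouse 2 was the highest of the 7 mice for IVD, MATN2 and TNFRSF11B. This library stood somewhat apart, as each of the other 6 mice correlated least with it (r = 0.965 to 0.972, against 0.969 to 0.981 among the others, over genes, and genes are no independent replicates). Without it the differences of IVD, TNFRSF11B and LRRC55 changed sign, as given for each gene. The β-cell markers moved with the groups as given above. With their mean as a covariate, the differences of IVD, EHHADH, MATN2 and TNFRSF11B changed sign, to −0.0096, −0.085, −0.015 and −0.28, and none passed the test.

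**Figure D1:**
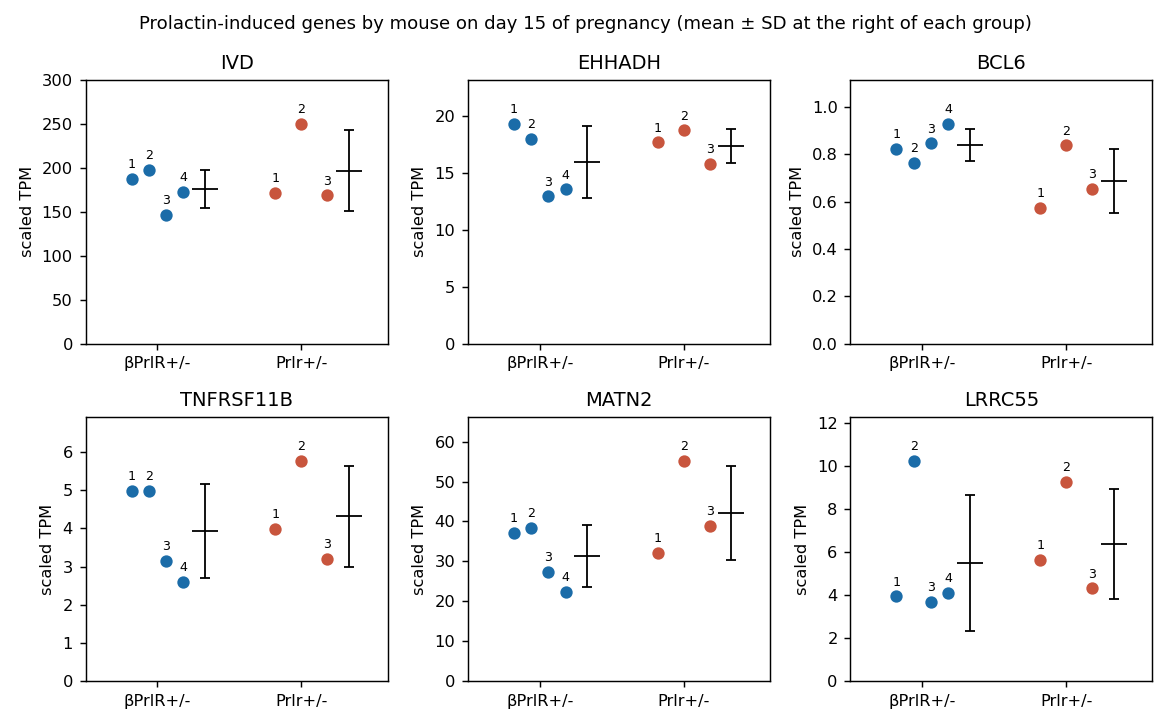
Scaled TPM of the 6 genes in each mouse (y axes, starting at 0) by group (x axis), with the mouse number above each point and the mean ± SD to the right of each group (n = 4 and 3). The groups overlap in every panel, and Prlr+/- mouse 2 is the highest point for IVD (250.1), TNFRSF11B (5.77) and MATN2 (55.1).

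**Figure D2:**
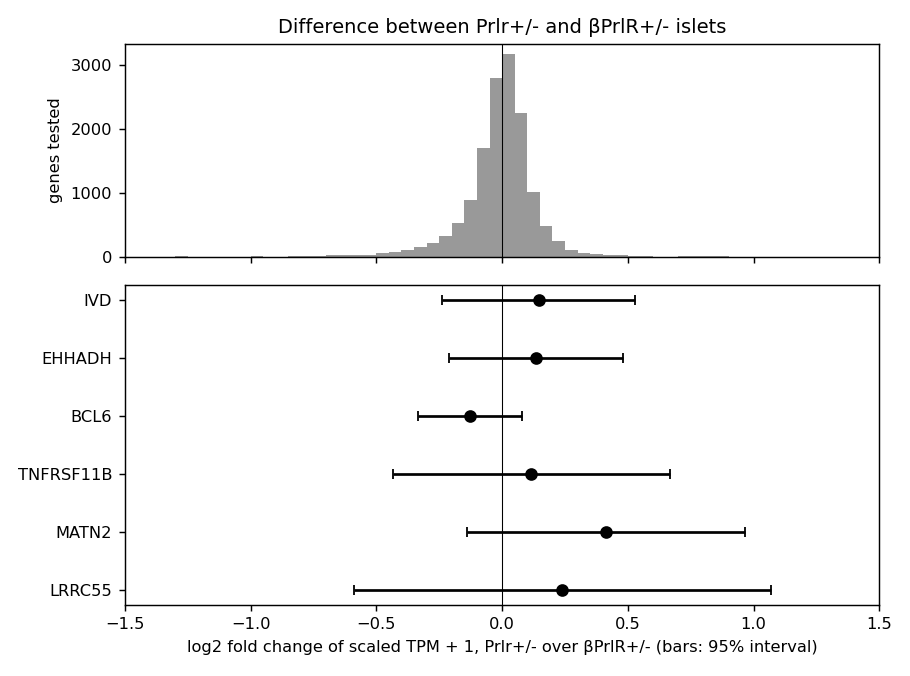
Upper panel, the number of genes tested (y axis) by log2 fold change of scaled TPM + 1, Prlr+/- over βPrlR+/- (x axis), where 58 genes beyond 1.5 in either direction are not drawn. Lower panel, the log2 fold change of each of the 6 genes (points) with its 95% interval from limma (bars), and every bar crosses 0.

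IVD, isovaleryl-CoA dehydrogenase, is the mitochondrial enzyme of the third step of leucine breakdown. It was the most abundant of the 6 genes, above 98.2% of the genes tested. Its scaled TPM was 187, 197, 146 and 173 in mice 1 to 4 of the βPrlR+/- group and 172, 250.1 and 168 in the Prlr+/- mice. The Prlr+/- value of mouse 2 stood above all others, and the other 2 Prlr+/- mice lay within the βPrlR+/- range. The means were 176 ± 21.9 (SD, n = 4) and 197 ± 46.2 (SD, n = 3). The log2 fold change was 0.15 (standard error 0.16), and the 95% interval of the fold ran from 0.847 to 1.44. The two-sided exact permutation test gave p = 0.571, where 0.0286 is the smallest p that the 35 splits of 7 mice allow. Without Prlr+/- mouse 2 the difference turned to −0.039. The level of IVD was carried by 1 curated transcript, which held 52.3% to 58.9% of the TPM in a mouse, and 1 predicted transcript. The curated share was 55.6% ± 1.71 in βPrlR+/- and 55.6% ± 3.30 in Prlr+/- islets (SD, n = 4 and 3, exact permutation p = 1.0).

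Of the 23 listed genes of leucine and branched-chain amino acid breakdown around IVD, 22 were tested. Of these, 16 were higher and 6 lower in Prlr+/- islets by log2 fold change, with a median of 0.034. None passed limma's test, 0 had an unadjusted p under 0.05, and the groups of all 22 overlapped. BCAT2, the mitochondrial transaminase of the first step, had means of 11.8 ± 1.34 and 12.2 ± 1.95 (SD, n = 4 and 3). BCKDHA, a subunit of the branched-chain ketoacid dehydrogenase that makes the substrate of IVD, had 25.3 ± 1.09 and 25.9 ± 2.18. BCKDK, the kinase that switches off that dehydrogenase, had 26.6 ± 0.908 and 26.7 ± 3.39. MCCC1 and MCCC2 form the carboxylase that acts on the product of IVD. MCCC1 had 7.40 ± 1.08 and 8.04 ± 0.605, and MCCC2 had 8.61 ± 0.597 and 8.82 ± 0.759. IVD was thus listed at a level several times that of BCKDHA, MCCC1 and MCCC2 in every mouse.

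EHHADH, the peroxisomal L-bifunctional enzyme, carries out the hydratase and dehydrogenase steps of peroxisomal β-oxidation. Its scaled TPM was 19.3, 17.9, 12.9 and 13.5 in mice 1 to 4 of the βPrlR+/- group and 17.7, 18.7 and 15.8 in the Prlr+/- mice. The βPrlR+/- mice fell into a higher and a lower pair, and all Prlr+/- values lay within the βPrlR+/- range. The means were 15.9 ± 3.17 (SD, n = 4) and 17.4 ± 1.49 (SD, n = 3). The log2 fold change was 0.14 (standard error 0.15), with an interval of the fold from 0.865 to 1.40 and an exact permutation p of 0.457. It was 0.048 without βPrlR+/- mouse 3, 0.068 without βPrlR+/- mouse 4, 0.083 without Prlr+/- mouse 2 and 0.23 without βPrlR+/- mouse 1. A curated transcript held 76.9% to 87.9% of the level and a predicted one the rest. The curated share was 79.8% ± 3.30 in βPrlR+/- and 82.7% ± 5.23 in Prlr+/- islets (SD, n = 4 and 3, exact permutation p = 0.400).

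Of the 20 listed genes of peroxisomal fatty acid oxidation around EHHADH, 17 were tested, 10 higher and 7 lower in Prlr+/- islets, with a median of 0.042. None passed limma's test, and 1 had an unadjusted p under 0.05. HSD17B4, the D-bifunctional enzyme that runs the same steps as EHHADH on other substrates, had means of 16.6 ± 1.03 and 16.8 ± 0.600 (SD, n = 4 and 3). PPARA, the nuclear receptor known to drive EHHADH in liver, was listed at 0.371 ± 0.0866 and 0.306 ± 0.0311, below the filter. ECH1 and DECR2, auxiliary enzymes for unsaturated fatty acids, were the only genes of the list whose groups did not overlap. ECH1 was 49.0 ± 0.509 in βPrlR+/- and 55.7 ± 6.03 in Prlr+/- islets (log2 fold change 0.17), and DECR2 was 15.8 ± 0.448 and 17.6 ± 0.973 (0.15). Both had an exact permutation p of 0.0286, the smallest possible, and a limma adjusted p of 1.0.

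BCL6 is a zinc-finger repressor known from germinal-centre B cells, and in islets it is known as a prolactin target that represses the menin gene MEN1. It was the least abundant of the 6 genes, at 0.822, 0.763, 0.846 and 0.929 scaled TPM in mice 1 to 4 of the βPrlR+/- group and 0.574, 0.837 and 0.654 in the Prlr+/- mice. Of the Prlr+/- mice, 1 and 3 lay below all βPrlR+/- mice and mouse 2 within their range. The means were 0.840 ± 0.0687 (SD, n = 4) and 0.688 ± 0.135 (SD, n = 3). The log2 fold change was −0.13 (standard error 0.088), with an exact permutation p of 0.143. The interval from 0.794 to 1.06 is that of the fold of scaled TPM + 1, and it understates the range for BCL6 itself. With a pseudocount of 0.1 in place of 1 the log2 fold change was −0.26 (standard error 0.19). A curated transcript held 94.2% to 97.8% of the level, 97.0% ± 0.685 in βPrlR+/- and 96.0% ± 1.54 in Prlr+/- islets (SD, n = 4 and 3, exact permutation p = 0.343).

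All 7 listed corepressors and relatives of BCL6 were tested, and all 7 had higher means in Prlr+/- islets by small amounts, from 0.0023 to 0.16 (median 0.037). None passed limma's test, 0 had an unadjusted p under 0.05, and none had groups apart. The paralogue BCL6B had 5.07 ± 0.363 and 5.82 ± 1.04 scaled TPM (SD, n = 4 and 3), and the corepressor BCOR had 12.2 ± 0.702 and 12.9 ± 1.28. NCOR1 had 30.8 ± 2.20 and 30.9 ± 2.33, and the deacetylase HDAC3 25.4 ± 0.973 and 26.3 ± 2.94.

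The list of menin and of genes repressed by BCL6 or kept on by menin held 7 genes, all tested, 4 higher and 3 lower, with a median of 0.020. None passed limma's test and 2 had an unadjusted p under 0.05. MEN1 itself was 20.0 ± 2.17 and 20.6 ± 1.49 scaled TPM (SD, n = 4 and 3), a log2 fold change of 0.043. CDKN1B and CDKN2C encode the cell-cycle inhibitors p27 and p18, which menin is known to keep on. CDKN1B was 29.6 ± 2.94 and 29.9 ± 1.38, and CDKN2C was 8.41 ± 1.14 and 9.80 ± 0.872. PRDM1, the plasma cell regulator that BCL6 represses in B cells, was 1.34 ± 0.459 and 1.24 ± 0.261. The groups did not overlap for CDKN1A, which encodes the inhibitor p21. CDKN1A was 38.0, 60.6, 34.8 and 61.5 in mice 1 to 4 of the βPrlR+/- group and 18.2, 19.9 and 32.6 in the Prlr+/- mice. Its log2 fold change was −1.02 (standard error 0.27, limma adjusted p = 0.723, exact permutation p = 0.0286).

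Promoter windows of 250 bases before to 50 after a start site were matched by symbol in RefSeq (GRCm38.p6) for 4 of the 6 genes, IVD, EHHADH, BCL6 and LRRC55, and BCL6 had windows at 2 start sites. They are shown for the genes with a match to TTCNNNGAA, the letters of the site that STAT5 dimers bind, which reads the same on both strands. IVD had 1 match, TTCCGAGAA, whose first base lies 88 bases before the start. The first BCL6 window had 1, TTCTCAGAA, at 118 bases before the start. The second BCL6 window, at a start site farther downstream in the gene, had 3, TTCCTGGAA, TTCTGTGAA and TTCCGGGAA, at 168, 122 and 88 bases before the start. The windows of EHHADH and LRRC55 held no match. Of all 32851 windows of this length, 8.30% held the motif. A PPAR response element, the half-site AGGTCA repeated in tandem with 1 base between and searched on both strands, was in 0.0396% of the windows and in none of these genes. A match of letters describes the sequence, and binding was not measured. The 250 bases before each start are printed 5′ to 3′ on the strand of the gene, with the matches in capitals, IVD at chr2:118861744-118861993 on the plus strand and BCL6 at chr16:23988853-23989102 and chr16:23981284-23981533 on the minus strand.
IVD: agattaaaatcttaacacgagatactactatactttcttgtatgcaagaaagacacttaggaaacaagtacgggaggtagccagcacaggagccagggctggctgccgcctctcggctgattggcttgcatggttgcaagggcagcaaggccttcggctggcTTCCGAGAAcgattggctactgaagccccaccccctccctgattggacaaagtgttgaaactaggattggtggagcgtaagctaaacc
BCL6 first start: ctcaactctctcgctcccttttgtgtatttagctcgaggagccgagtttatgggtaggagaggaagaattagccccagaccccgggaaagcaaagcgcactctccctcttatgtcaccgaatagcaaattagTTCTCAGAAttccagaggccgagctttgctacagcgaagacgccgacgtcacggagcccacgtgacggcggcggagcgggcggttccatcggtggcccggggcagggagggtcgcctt
BCL6 second start: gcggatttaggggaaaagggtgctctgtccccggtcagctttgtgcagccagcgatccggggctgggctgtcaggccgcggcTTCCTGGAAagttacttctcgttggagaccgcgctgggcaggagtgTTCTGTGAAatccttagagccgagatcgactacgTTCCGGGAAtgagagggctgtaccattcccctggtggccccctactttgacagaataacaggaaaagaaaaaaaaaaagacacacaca

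IVD and BCL6, the genes whose windows hold these letters, stood at the highest and the lowest level of the 6. Their differences between the groups were of opposite sign, and the groups overlapped for both.

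TNFRSF11B, osteoprotegerin, is a secreted decoy receptor that binds the cytokines RANKL and TRAIL, and it is best known for holding back bone resorption. Its scaled TPM was 4.98, 4.99, 3.15 and 2.59 in mice 1 to 4 of the βPrlR+/- group and 3.98, 5.77 and 3.20 in the Prlr+/- mice. The same higher and lower pairs of βPrlR+/- mice appeared as for EHHADH. The means were 3.93 ± 1.24 (SD, n = 4) and 4.32 ± 1.32 (SD, n = 3). The log2 fold change was 0.12 (standard error 0.24), with an interval of the fold from 0.740 to 1.59 and an exact permutation p of 0.771. The difference turned to −0.073 without Prlr+/- mouse 2 and to −0.024 without βPrlR+/- mouse 4. A single curated transcript carried the gene.

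Of the 7 listed ligands of osteoprotegerin, receptors of those ligands and adaptors, 4 names were in the table and 3 were tested, with none past limma's test, 0 at an unadjusted p under 0.05 and a median of −0.0032. TNFSF11, the gene of RANKL, was listed at 0 in all 7 mice. TNFRSF11A, the receptor RANK, was listed at 2.10 ± 0.361 and 2.16 ± 0.492 scaled TPM (SD, n = 4 and 3). TNFSF10, the gene of TRAIL, was listed at 3.23 ± 0.653 and 2.74 ± 0.575. In these islets the decoy was thus listed at a level near that of TRAIL, beside no listed RANKL.

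MATN2, matrilin 2, is an adaptor protein of the extracellular matrix that links fibrils and collagens. Its scaled TPM was 37.2, 38.4, 27.3 and 22.4 in mice 1 to 4 of the βPrlR+/- group and 32.2, 55.1 and 39.0 in the Prlr+/- mice. Prlr+/- mice 2 and 3 stood above all βPrlR+/- mice and mouse 1 within their range. The means were 31.3 ± 7.78 (SD, n = 4) and 42.1 ± 11.8 (SD, n = 3). The log2 fold change of 0.41 (standard error 0.24) had the greatest size among the 6 genes, with an interval of the fold from 0.907 to 1.96, an unadjusted limma p of 0.122 and an exact permutation p of 0.229. Leaving out a mouse gave 0.20 to 0.58. MATN2 did not rank first in every alternative, as LRRC55 was at 0.54 without βPrlR+/- mouse 2, against 0.52 for MATN2. The level of MATN2 was shared by a predicted transcript, at 52.9% to 58.5%, and a curated one. The predicted share was 55.6% ± 2.44 in βPrlR+/- and 56.0% ± 2.56 in Prlr+/- islets (SD, n = 4 and 3, exact permutation p = 0.886).

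Of the other matrilins and matrix partners, 10 were listed and 3 passed the filter, NID1, DCN and BGN. All 3 had lower means in Prlr+/- islets (median −0.30), with none past limma's test and 0 at an unadjusted p under 0.05. MATN1 and MATN3 were listed at 0 in all 7 mice, and MATN4 at 0.513 ± 0.321 and 0.439 ± 0.310 scaled TPM (SD, n = 4 and 3). NID1, the basement membrane protein nidogen 1, was listed at 4.49 ± 1.24 and 4.06 ± 0.734, and the proteoglycan genes DCN and BGN at 6.42 ± 3.17 and 5.08 ± 2.93 and at 5.34 ± 1.24 and 4.12 ± 1.04. FBN2 and FN1, the genes of fibrillin 2 and fibronectin, were at 0.0222 ± 0.00902 and 0.0275 ± 0.00247, and at 0.156 ± 0.0375 and 0.143 ± 0.0820. COMP, a cartilage matrix protein under the filter, had groups that did not overlap, at 0.0812 ± 0.0141 and 0.0469 ± 0.0122. MATN2 thus stood above every other gene of its list in every mouse. The fibroblast and pericyte markers ran from 46.5 to 65.8 scaled TPM in sum in βPrlR+/- and from 34.97 to 56.1 in Prlr+/- mice. With their mean as a covariate the difference of MATN2 was 0.46, against −0.015 with that of the β-cell markers.

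LRRC55 is a leucine-rich repeat protein known as a γ subunit of the BK potassium channel, whose opening it eases. Its scaled TPM was 3.94, 10.2, 3.67 and 4.08 in mice 1 to 4 of the βPrlR+/- group and 5.62, 9.25 and 4.31 in the Prlr+/- mice. A single mouse of each group, mouse 2 in both, was high, and the other 5 mice lay between 3.67 and 5.62. The means were 5.48 ± 3.18 (SD, n = 4) and 6.39 ± 2.56 (SD, n = 3). The log2 fold change was 0.24 (standard error 0.35), with an interval of the fold from 0.666 to 2.09 and an exact permutation p of 0.543. The difference was −0.024 without Prlr+/- mouse 2 and 0.54 without βPrlR+/- mouse 2. Without both, a choice made after the values were seen, it was 0.28. The summed acinar markers were at their lowest in βPrlR+/- mouse 2, at 1314 scaled TPM, and at 10678 in Prlr+/- mouse 2, among the highest. The difference of LRRC55 was 0.27 with the mean of the acinar markers as a covariate, 0.13 with that of the fibroblast and pericyte markers and 0.38 with that of the β-cell markers.

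LRRC55 had 4 transcripts, and mouse 2 of each group was high in the 3 predicted ones. In the curated one Prlr+/- mouse 1, at 1.64 scaled TPM, stood above βPrlR+/- mouse 2, at 1.25. The leading predicted transcript held 41.5% to 49.3% of the level and was at 4.58 and 3.84 scaled TPM in βPrlR+/- and Prlr+/- mouse 2, against 1.65 to 2.43 in the other mice. The curated transcript held 12.2% to 29.2%. The leading share was 45.7% ± 2.50 in βPrlR+/- and 43.9% ± 2.81 in Prlr+/- islets (SD, n = 4 and 3, exact permutation p = 0.429). Of the 8 listed BK channel subunits, 4 were tested, 2 higher and 2 lower (median 0.040), none past limma's test and 0 at an unadjusted p under 0.05. KCNMA1, the pore-forming subunit, was at 11.7 ± 0.988 and 11.3 ± 1.68 scaled TPM (SD, n = 4 and 3). KCNMB1, a β subunit under the filter, had groups that did not overlap, at 0.476 ± 0.0716 and 0.333 ± 0.0363 (exact permutation p = 0.0286).

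**Figure D3:**
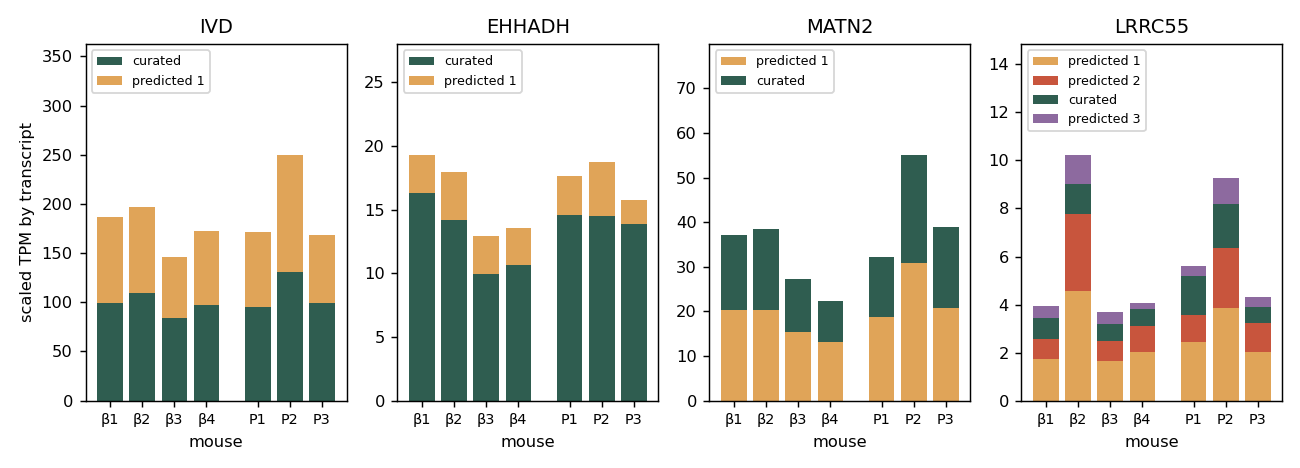
Scaled TPM (y axes) of each transcript of IVD, EHHADH, MATN2 and LRRC55, stacked by mouse (x axis, β1 to β4 for βPrlR+/- and P1 to P3 for Prlr+/-), with colours for curated and predicted RefSeq transcripts. The curated share of IVD stays between 52.3% and 58.9%, that of LRRC55 ranges from 12.2% to 29.2%, and LRRC55 is high in β2 and P2 in its 3 predicted transcripts.

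**Figure D4:**
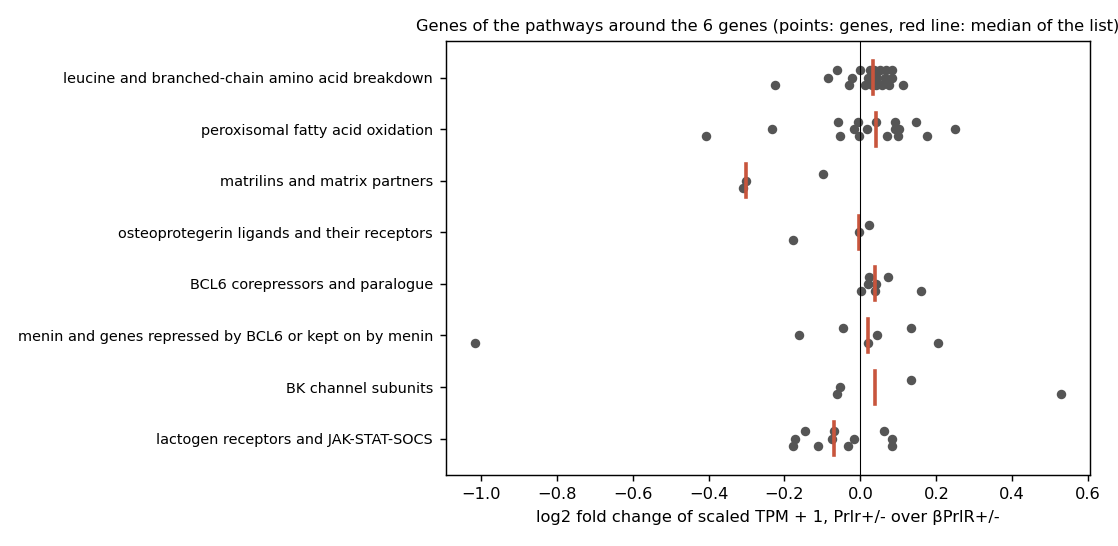
Log2 fold change of scaled TPM + 1, Prlr+/- over βPrlR+/- (x axis), of the tested genes of each list (points, 1 row per list), with the median of the list as a red line. Most genes lie close to 0, and CDKN1A at −1.02 lies farthest from it.

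The receptor and its pathway gave no call either. The 11 listed lactogen receptor and JAK-STAT-SOCS genes were all tested, 3 higher and 8 lower in Prlr+/- islets (median −0.070), none past limma's test and 0 at an unadjusted p under 0.05. PRLR was 55.6, 38.4, 47.3 and 38.8 scaled TPM in mice 1 to 4 of the βPrlR+/- group and 36.1, 51.1 and 35.05 in the Prlr+/- mice. The means of 45.0 ± 8.18 and 40.7 ± 8.96 (SD, n = 4 and 3) gave a log2 fold change of −0.15 (standard error 0.17). Cre removes a single exon of the floxed allele, and a value summed over whole transcripts does not read that exon, so PRLR does not check the labels, and no wild type level was at hand. JAK2 was 10.4 ± 0.546 and 9.85 ± 1.05, STAT5A 4.67 ± 0.506 and 4.46 ± 1.16, and STAT5B 16.5 ± 1.25 and 17.6 ± 2.31. CISH was 42.6 ± 4.40 and 46.1 ± 12.7, and SOCS2 39.0 ± 4.12 and 40.7 ± 2.99.

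The order of the mean levels was IVD, MATN2, EHHADH, LRRC55, TNFRSF11B and BCL6. Ratios within a mouse do not depend on the size factors. IVD was 5.26 times MATN2, MATN2 2.12 times EHHADH, EHHADH 3.03 times LRRC55, and TNFRSF11B 5.15 times BCL6 (geometric means), each in 7 of 7 mice. Each of these had p = 0.0156 in a two-sided exact sign-flip test, the smallest possible with 7 mice, and 0.0195 after adjustment over the 5 neighbours. LRRC55 was 1.37 times TNFRSF11B on average, higher in 6 of 7 mice, with a ratio from 0.791 to 2.05 and an exact adjusted p of 0.0469. The neighbours and their direction were taken from the order of the means in these same mice, so the p-values are no independent support of the order. They do not measure how steady a step was. The SD of the log2 ratio over the mice was 0.27 for IVD over MATN2 and 0.28 for MATN2 over EHHADH. It was 0.51 for EHHADH over LRRC55, 0.43 for LRRC55 over TNFRSF11B and 0.51 for TNFRSF11B over BCL6. Leaving out any mouse other than βPrlR+/- mouse 1 raised the exact adjusted p of LRRC55 over TNFRSF11B to between 0.0625 and 0.0938. Without βPrlR+/- mouse 1 it was 0.0312, the smallest p possible with 6 mice. That floor lies above the one with 7 mice, so a rise comes in part from the lost mouse. The log2 ratio itself was 0.36 to 0.59 on leaving out a mouse.

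Between mice, 5 of the 6 genes varied more than most genes of like level. The coefficient of variation over the 7 mice was 46.5% for LRRC55, above that of 96.1% of the genes within a factor of 2 of its level. It was 29.1% for MATN2, above 94.9% of such genes, and 28.8% for TNFRSF11B, above 90.2%. IVD had 17.8%, above 87.9%, and EHHADH had 15.3%, above 85.5%. BCL6 had 15.8%, above only 19.4% of the genes at its low level, whose median was 25.0%. The highest mouse was 1.49 times the lowest for EHHADH and 2.79 times for LRRC55, with the other 4 genes between.

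The same 5 genes tended to be high and low in the same mice. Prlr+/- mouse 2 and βPrlR+/- mouse 2 were among the 3 highest mice for each of IVD, EHHADH, TNFRSF11B and MATN2 and were the highest 2 for LRRC55. βPrlR+/- mouse 3 was among the lowest 2 mice for all 5. BCL6 had another order, with βPrlR+/- mouse 4 highest, then βPrlR+/- mouse 3 and Prlr+/- mouse 2, and Prlr+/- mouse 1 lowest. Over the 15 pairs, Pearson's r ranged from 0.57 to 0.89 for the 10 pairs without BCL6 and from −0.34 to 0.15 for the 5 pairs with it. Some of the values of BCL6 depended on the groups, the scaling and the mice included. Its r with IVD, 0.15, was 0.52 after the group means were removed and 0.42 on TPM as deposited. With MATN2 it turned from −0.23 to 0.22 after the group means were removed and was −0.13 on TPM as deposited. With EHHADH it was −0.17 and −0.048 in the same order. Without βPrlR+/- mice 3 and 4, farthest from the median of EHHADH, that r turned to 0.66. With TNFRSF11B and LRRC55 the r of BCL6 lay between 0.054 and 0.10 under both changes. With LRRC55 it was −0.61 without Prlr+/- mice 1 and 3, farthest from the median of BCL6. The greatest r was that of EHHADH with TNFRSF11B, 0.89 (n = 7, exact permutation p = 0.00952, adjusted p = 0.0962), with a Spearman's rho of 0.86 (exact permutation p = 0.0238, adjusted p = 0.180). It was 0.89 without the 2 mice farthest from the median of EHHADH, and 0.89 after the group means were removed. MATN2 with TNFRSF11B had r = 0.84, which was 0.51 without the 2 mice farthest from the median of MATN2. IVD with MATN2 had r = 0.79, which was 0.39 without its 2 farthest mice. Without the 2 mice farthest from the median of EHHADH, its r with MATN2 fell from 0.77 to 0.24. Its r with LRRC55 fell from 0.57 to 0.24 without the same mice. IVD with TNFRSF11B stayed at 0.79 without the 2 mice farthest from the median of IVD. No pair passed an adjusted p of 0.05 by either coefficient. All 7 values of a pair share a library, and the β-cell, acinar and other markers also differed between mice.

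**Figure D5:**
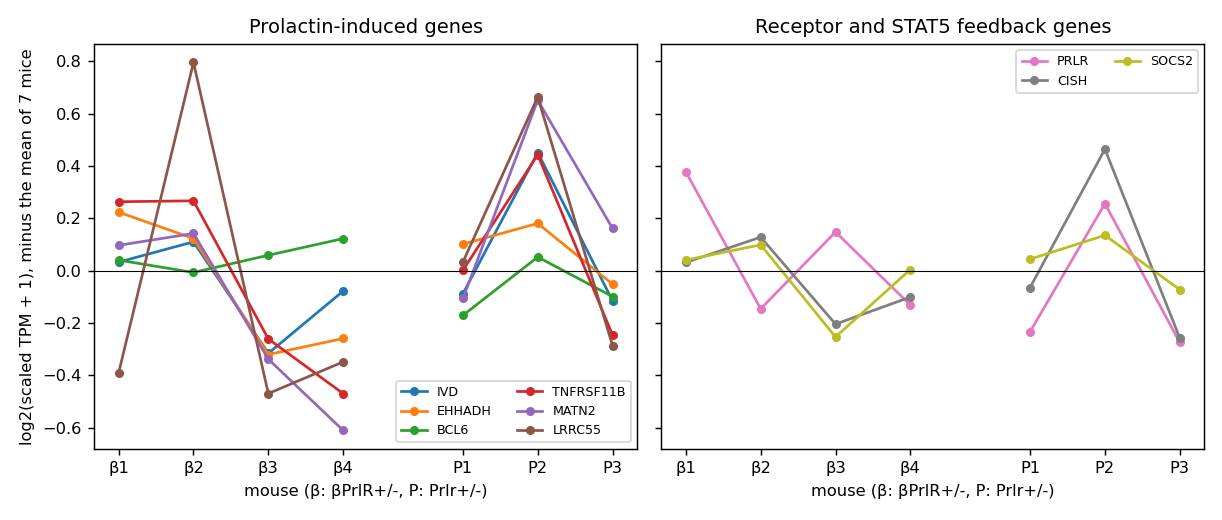
Log2(scaled TPM + 1) minus the mean of the 7 mice (y axis) in each mouse (x axis, β1 to β4 for βPrlR+/- and P1 to P3 for Prlr+/-), for the 6 genes (left) and for PRLR, CISH and SOCS2 (right). On the left all 6 genes are above their mean in P2, and all but BCL6 are below it in β3. The values of BCL6, a gene below 1 scaled TPM, are drawn closer to 0 by the 1 that was added.

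The levels of the 6 genes were set beside that of PRLR over the 7 mice. Pearson's r was 0.34 for IVD, 0.27 for EHHADH, 0.31 for MATN2, 0.51 for TNFRSF11B, 0.57 for BCL6 and −0.058 for LRRC55, with exact permutation adjusted p from 0.641 to 0.887 over the 6 relations. Spearman's rho was 0.43, 0.43, −0.036, 0.29, 0.61 and −0.36 in the same order, with exact permutation adjusted p from 0.667 to 0.963. Without βPrlR+/- mouse 1 and Prlr+/- mouse 2, farthest from the median of PRLR, r turned to −0.62, −0.69, −0.49 and −0.21 for IVD, EHHADH, MATN2 and TNFRSF11B, so these positive values rested on those mice. It was 0.62 for BCL6 and −0.31 for LRRC55. After the group means were removed the 6 values were 0.49, 0.41, 0.60, 0.60, 0.52 and 0.018.

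For each of the 6 genes, the 3 genes with the greatest Pearson's r over the 7 mice were taken from about 8975 genes with a mean of at least 5 scaled TPM. They are a description, as the best of so many genes over 7 points reach high values. IVD was most like ZNHIT6 (0.98), CDK5R2 (0.97) and USP39 (0.97), and EHHADH most like HEXA (0.99), CHID1 (0.98) and FAM149B1 (0.98). MATN2 was most like IDS (0.97), ADRA2A (0.96) and U2af1 (0.96), and TNFRSF11B most like CHPT1 (0.96), HADHA (0.96) and EXD2 (0.95). BCL6 was most like FBXW9 (0.97), Snord68 (0.97) and CASKIN2 (0.95), and LRRC55 most like MTPN (0.96), LNX1 (0.94) and PTPRN (0.92). HEXA, the α subunit of the lysosomal β-hexosaminidase, followed EHHADH from 122 and 101 scaled TPM in βPrlR+/- mice 1 and 2 to 66.5 and 69.2 in mice 3 and 4, with 106, 110 and 88.6 in Prlr+/- mice 1 to 3. ADRA2A, the α2A-adrenergic receptor that restrains insulin release, was 29.3 and 36.0 on average in the groups (log2 fold change 0.28, limma adjusted p = 1.0). PTPRN, a protein of insulin granules, ranged from 125 to 148 scaled TPM, a narrower span relative to its level than the 3.67 to 10.2 of LRRC55.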

How the data were processed

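Per the labels and the study's methods, strand-specific libraries were made from poly(A) RNA, and the authors quantified reads against mouse RefSeq transcripts with Kallisto 0.42.4. Their methods name FPKM, but the deposited values of each of the 7 mice sum to 1000000 and were handled as TPM, for 107384 transcripts and 34082 gene names. No genome build is given in the sources used here. TPM was divided by median-ratio size factors, because insulin genes dominate it (median log2 fold change of all genes −0.12 before, 0.0042 after). After a filter at a mean of 0.5 TPM, log2(scaled TPM + 1) was compared with limma 3.58.1 (trend, empirical Bayes) in R 4.3.3, Benjamini-Hochberg adjustment over 14840 genes and a threshold of 0.05, tested on simulated data. Single values had two-sided exact permutation tests over 35 splits. Other steps used Python 3.11.15, numpy 2.4.6, pandas 2.3.3, scipy 1.17.1 and matplotlib 3.10.9.

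Mice were grouped by the tissue of deletion in the labels and numbered in the order of deposit, and the labels name no batch. The authors' own test, Sleuth, was not used here. The 6 genes and the lists were chosen with earlier results of these data known. Of 155 listed genes 151 were matched. Named genes are the 6, direct partners in their lists, list genes whose groups did not overlap or that passed the test, and the 3 most correlated genes each, and gene descriptions are background. HEXA, ADRA2A and PTPRN were picked from the last for fuller values after these were seen. A few genes that this rule names are not reported here. The single-mouse tables were not used. Alternatives were scaling, pseudocount, filter, curated transcripts, marker covariates and leaving out mice.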

Additional observations from a re-analysis of the deposited data

Results flagged for a closer look

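LRRC55 in βPrlR+/- mouse 2 was at 10.2 scaled TPM, far above the other 3 βPrlR+/- mice. Its gap to the nearest of them was 0.938 of the whole range of the group, beyond Dixon's critical value for 4 samples, which chance passes in about 1 of 20 groups. Prlr+/- mouse 2 was also high, at 9.25, in a group too small for this rule. The rule was applied to all 6 genes, so a pass in at least 1 of them is more frequent than 1 in 20. The other 5 genes were not set apart in the same mouse in this way.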

How the results depend on the processing

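No paired analysis was possible because the labels give the groups no shared replicate numbers. None of the 6 genes passed limma's test under any of 19 alternatives each, with adjusted p from 0.590 to 1.0. BCL6 kept its sign in all 19, with log2 fold changes from −0.26 to −0.077. The β-cell list as a covariate reversed IVD to −0.0096, EHHADH to −0.085, MATN2 to −0.015 and TNFRSF11B to −0.28, and TPM as deposited reversed EHHADH to −0.0017, left IVD at 7.7e-05 and TNFRSF11B at 0.0044, and reversed the r of LRRC55 with PRLR to 0.092. Leaving out a mouse gave −0.039 to 0.24 for IVD, 0.048 to 0.23 for EHHADH, 0.20 to 0.58 for MATN2, −0.073 to 0.27 for TNFRSF11B, −0.19 to −0.077 for BCL6 and −0.024 to 0.54 for LRRC55. Without the 2 mice farthest from its median, r with PRLR reversed to −0.62, −0.69, −0.49 and −0.21 for IVD, EHHADH, MATN2 and TNFRSF11B. The number of genes past the threshold went from 10 to 5 with the total without insulin genes, with PGK1 scaling, with curated transcripts only and with the fibroblast covariate. It was 18 with a pseudocount of 0.1, 4 with all genes above 0, 6 with the acinar and 2 with the β-cell covariate, and 2 to 12 on leaving out a mouse. The log2 ratio of LRRC55 to TNFRSF11B, 0.45, was 0.36 to 0.59 on leaving out a mouse. The other 4 ratios kept their side of the threshold, at 2.30 to 2.44, 1.004 to 1.14, 1.48 to 1.73 and 2.29 to 2.51. The causes were not tested. TPM keeps no depth, and the precision of low genes such as BCL6 is unknown.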

Other observations

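CISH and SOCS2, the STAT5 feedback genes, were set beside the 6 genes after their values had been seen, as 12 relations over the 7 mice. CISH was 44.5, 47.6, 37.6 and 40.5 scaled TPM in mice 1 to 4 of the βPrlR+/- group and 41.6, 60.4 and 36.2 in the Prlr+/- mice. IVD had the highest r with it, 0.95 (n = 7, exact permutation p = 0.00238, adjusted p = 0.0286), with a Spearman's rho of 0.93 (exact permutation p = 0.00675, adjusted p = 0.0714). Without the 2 mice farthest from the median of CISH r was 0.96, after the group means were removed it was 0.96, and on TPM as deposited it was 0.97. TNFRSF11B with CISH had r = 0.83 and LRRC55 with CISH 0.78 (exact permutation adjusted p = 0.0667 and 0.0729). SOCS2 was 40.7, 42.4, 33.04 and 39.7 in mice 1 to 4 of the βPrlR+/- group and 40.8, 43.6 and 37.6 in the Prlr+/- mice. It had r = 0.84 with IVD and 0.80 with EHHADH (exact permutation adjusted p = 0.0729 for both). BCL6 had r = 0.25 with CISH and −0.085 with SOCS2, which were 0.50 and 0.12 after the group means were removed and 0.51 and 0.47 on TPM as deposited. BCL6 had r = −0.20 with CISH without the 2 mice farthest from the median of CISH. The other relations ranged from 0.55 to 0.72. Among them MATN2 with SOCS2, at 0.55, was 0.32 on TPM as deposited. That r was 0.92 without the 2 mice farthest from the median of SOCS2. The relation of IVD and CISH was the only 1 of the 12 past an adjusted p of 0.05 by Pearson's r, and none passed by Spearman's rho.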
